A study of Mus musculus with 12 samples.

Results

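The transcripts described here encode the enzymes that write and erase methyl and acetyl groups on histones and DNA, in bone marrow cells cultured with indole-3-propionic acid (IPA), a compound that gut bacteria make from tryptophan. They were taken by symbol, as the genes named Dnmt, Tet, Kmt, Setd, Ezh, Kdm, Prmt, Kat, Hdac or Sirt with a number and at most some further lower-case letters. In the table of counts 82 symbols had this form, and 74 of them exceeded 0.5 CPM, that is counts relative to library size, in at least 2 of the 12 libraries, among 14894 genes of the series that did so. The choice used no comparison between groups. It took in *Dnmt3aos*, a noncoding RNA on the opposite strand of *Dnmt3a*, and *Dnmt3l*, a partner of the DNA methyltransferases without catalytic activity, and it left out enzymes with other names such as *Ep300*, *Nsd1* or *Dot1l*. The 8 symbols below the filter were *Dnmt3bos*, *Dnmt3c*, *Hdac11*, *Prmt8*, *Kdm4d*, *Kdm4dl*, *Kdm5d* and *Kdm6bos*, with at most 20 counts in any library.

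The cultures were started from the bone marrow of wild-type mice of the C57BL/6 strain, given GM-CSF and IL-6, a pair of cytokines that drive myeloid differentiation, and harvested on day 5. The groups differed in what was added to that medium, namely vehicle (0.1% DMSO), 10 µM IPA or 50 µM IPA, each group having 4 libraries. The cells were not sorted, so each library is a mixture, and fewer cells of a type cannot be told apart from less RNA per cell. The authors reported slightly reduced viability in such cultures at the higher dose but not at the lower dose. For that reason they centred their own expression analysis on the lower dose. The part of reduced viability in the comparisons with the higher dose was not tested here. The labels do not say whether libraries of a group came from separate mice, so p-values measure only the spread between these libraries, which may be technical.

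Histone methylation and acetylation set how open chromatin is and which proteins it recruits. Methyltransferases of the KMT, SETD and EZH families and arginine methyltransferases of the PRMT family use S-adenosylmethionine, acetyltransferases use acetyl-CoA, and sirtuins need NAD, so these marks depend on metabolism. On DNA, DNMT enzymes methylate cytosine in CG dinucleotides and TET enzymes oxidize the methyl group. In myeloid cells *Tet2*, *Dnmt3a*, *Ezh2* and *Kmt2a* are best known as genes mutated or rearranged in leukaemia and clonal blood disorders.

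The depth of a library was between 20451312 and 28038612 counted reads. In every library the neutrophil, monocyte and macrophage marker lists were high, with neutrophil markers summing to between 16650 and 31329 CPM. Markers of T and NK cells summed to at most 19.9 CPM and those of erythroid cells to at most 0.879 CPM. Libraries differed in how counts depended on gene length. The slope of log2 counts per doubling of exon length was lowest in replicate 4 with vehicle (-0.04), replicate 1 at 10 µM (-0.05) and replicate 3 at 50 µM (-0.07), and highest in replicate 2 with vehicle (0.04). The transcripts of the enzymes are long, with a median exon length of 6016 bases against 3873 for all genes tested. The correlation of their log2 fold changes with log2 exon length was 0.09 at 10 µM and 0.10 at 50 µM against vehicle. Between the doses it was 0.03. The part of the slopes in the levels of the enzymes was not tested.

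With vehicle, levels per kilobase of exon spanned from 0.130 (*Hdac9*) to 50.4 (*Hdac1*) CPM per kb. Such values, CPM divided by exon length, allow genes to be set side by side. The highest member held from 17.5% (*Kdm5c*) to 82% (*Dnmt1*) of the summed level per kb of its class. *Dnmt1*, the maintenance methyltransferase that copies methylation after replication, reached 44.0 ± 7.42 CPM per kb (SD, n = 4), which was 82% of the summed level of its class. The de novo enzyme *Dnmt3a* followed at 5.68 ± 0.860 and *Dnmt3b* stood at 1.17 ± 0.145 CPM per kb (SD, n = 4). The libraries of these 3 genes did not overlap, so the order held in each of them. Among the TET dioxygenases *Tet3* was highest at 7.23 ± 1.76 CPM per kb (SD, n = 4), *Tet2* was next at 2.53 ± 1.27 and *Tet1* was lowest at 0.220 ± 0.092, again without overlap between neighbours.

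Among the lysine methyltransferases *Kmt5a*, which places the first methyl group on lysine 20 of histone H4, led with 38.5 ± 4.34 CPM per kb (SD, n = 4), ahead of *Setd3*, an actin histidine methyltransferase, with 20.2 ± 0.481. From the fourth place down to the seventeenth, each of these methyltransferases overlapped its neighbour above in the vehicle libraries. The demethylases were led by *Kdm5c*, which removes methyl groups from lysine 4 of histone H3, at 28.1 ± 2.12 CPM per kb (SD, n = 4). *Prmt1*, the main source of asymmetric dimethylarginine, stood at 30.5 ± 0.867 CPM per kb (SD, n = 4) and *Prmt5*, which makes symmetric dimethylarginine, at 18.7 ± 1.90. *Kat7* led the acetyltransferases at 20.4 ± 1.16 CPM per kb (SD, n = 4). *Hdac1* reached 50.4 ± 2.54 CPM per kb (SD, n = 4), above *Hdac2* (15.3 ± 0.724) and *Hdac3* (15.0 ± 0.452), which overlapped. *Sirt2* was the highest sirtuin at 14.9 ± 0.318 CPM per kb (SD, n = 4), and *Sirt7*, a nucleolar deacetylase, was next at 11.6 ± 1.24.

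**Figure D1:**
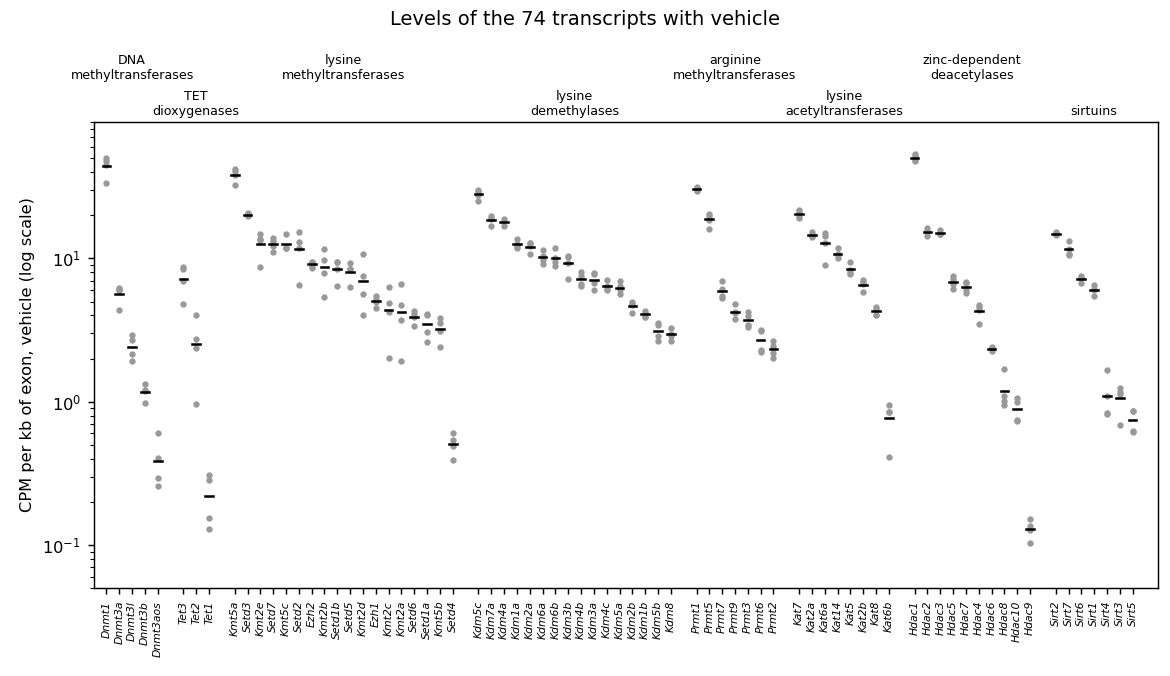
Levels of the 74 transcripts with vehicle in CPM per kb of exon on a log axis, grouped by class and ordered by mean, with 1 point per library and a bar at the mean. *Dnmt1*, *Kmt5a*, *Kdm5c*, *Prmt1*, *Kat7*, *Hdac1*, *Sirt2* and *Tet3* stand at the top of their classes, and *Hdac9* and *Tet1* are among the lowest transcripts shown.

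Summed over a class, the levels of the 3 groups lay close together. The 18 lysine methyltransferases summed to 1582 ± 314 CPM with vehicle, 1491 ± 201 at 10 µM and 1602 ± 91.6 at 50 µM (SD, n = 4 each), and the 16 demethylases to 1368 ± 93.5, 1355 ± 126 and 1277 ± 68.1 CPM. The 10 zinc-dependent deacetylases gave 498 ± 7.81 CPM with vehicle, 475 ± 16.9 at 10 µM and 467 ± 9.04 at 50 µM. For this class the vehicle libraries, from 488 to 504 CPM, lay above all 4 libraries at 50 µM, from 459 to 480 CPM, and overlapped those at 10 µM. Its members did not move together. *Hdac1* alone averaged 174 ± 8.77 CPM with vehicle and 152 ± 6.19 at 50 µM (SD, n = 4 each). Of the 10 members 5 had a log2 fold change above 0 at 50 µM. In the other 7 classes the vehicle libraries overlapped those of both doses. No test was made of these sums.

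**Figure D2:**
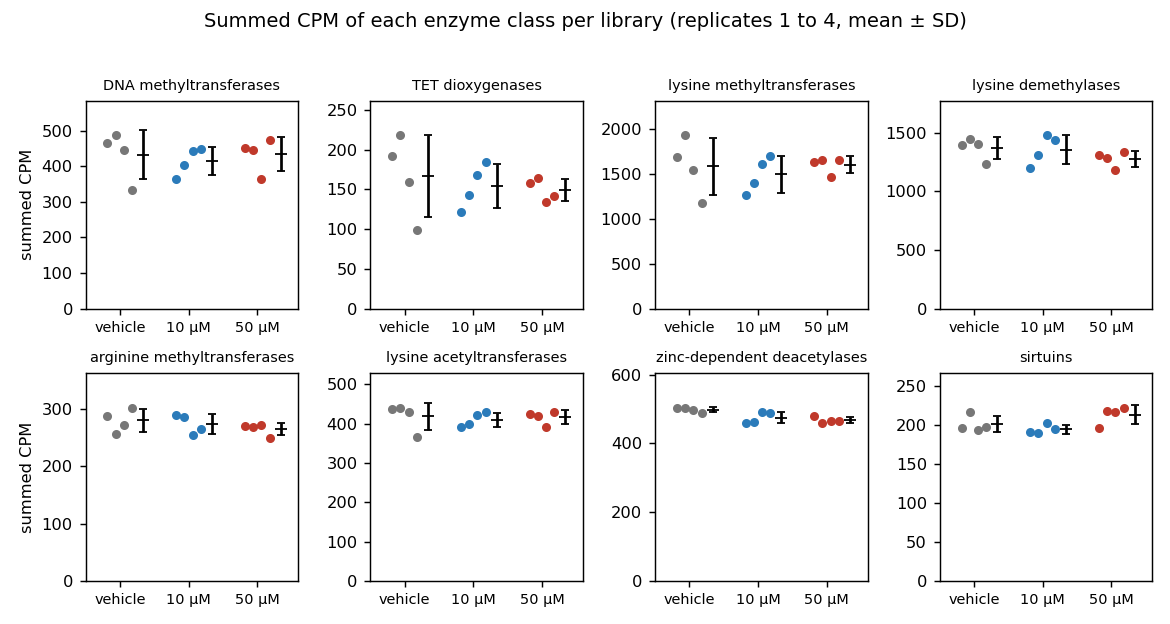
Summed CPM of the enzymes of each class in each library, with mean ± SD of 4 libraries beside the points and every axis starting at 0. The groups overlap except for the zinc-dependent deacetylases, where the vehicle libraries (488 to 504 CPM) lie above those at 50 µM (459 to 480 CPM). Of these 10 deacetylases 5 had a log2 fold change above 0 at 50 µM.

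Whether IPA altered the transcripts of these enzymes at the lower dose was asked by comparing 10 µM with vehicle. None of the 74 passed an adjusted p of 0.05 in edgeR's quasi-likelihood test, where 0.41% of all genes did (p adjusted by Benjamini-Hochberg over the 14894 genes). At an unadjusted p of 0.05 there were 5 enzymes (6.76%, against 8.78% of all genes). DESeq2's Wald test called 1, *Hdac9*, and limma-voom none. The 95% interval of the fold change stayed within 1.5-fold either way for 61 of 74 enzymes (82.4%, against 65.5% of all genes). The enzymes were the more abundant, with a median level of 50.8 CPM against 18.5 CPM for all genes, and the part of that in the width of the intervals was not tested. More estimates lay below 0 than above it, 50 of 74 (67.6%, against 51.8% of all genes), and the median log2 fold change was -0.06, against -0.01 for all genes. The median stayed below 0 in each of the 19 alternatives, but its size depended on single libraries, as 24 of 74 were above 0 with all 8 libraries, 36 without replicate 2 with vehicle (median -0.00), 31 without replicate 1 at 10 µM (-0.02), 27 without replicate 1 with vehicle (-0.02) and 19 without replicate 4 with vehicle (-0.09). The class medians ran from -0.12 in the TET dioxygenases, with 0 of 3 above 0, to 0.13 in the DNA methyltransferases, with 3 of 5 above 0.

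At 10 µM the 5 enzymes with the smallest p were *Hdac9*, *Hdac1*, *Prmt2*, *Kdm4b* and *Tet1*. *Hdac9*, a class IIa deacetylase that acts mainly as a scaffold for corepressors, had 1.51, 2.01, 2.24 and 1.87 CPM with vehicle, 3.04, 3.78, 3.42 and 3.48 CPM at 10 µM, and 3.27, 3.59, 4.13 and 3.44 CPM at 50 µM (replicates 1 to 4). All 8 libraries with IPA were thus above all 4 with vehicle, while the doses overlapped. Its log2 fold change at 10 µM was 0.85 with an SE (standard error) of 0.19 and an adjusted p of 0.103 by edgeR. With all 12 libraries in the fit the adjusted p was 0.0384, and over all 19 alternatives it lay between 0.0104 and 0.358.

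*Hdac1*, the catalytic core of several corepressor complexes, had 179, 166, 167 and 183 CPM with vehicle, 152, 156, 155 and 156 CPM at 10 µM, and 157, 152, 156 and 143 CPM at 50 µM. The vehicle libraries were the highest 4 of the 12. At 10 µM the log2 fold change was -0.17 ± 0.06 (SE; adjusted p = 0.353 by edgeR). Its partner *Hdac2* and the tubulin deacetylase *Hdac6* were, like *Hdac1*, lower in every 10 µM library than in every vehicle library, with adjusted p of 0.641 and 0.730. Together with *Hdac9* these made 4 enzymes whose groups did not overlap (5.41%, against 6.13% of all genes).

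*Prmt2*, a weakly active arginine methyltransferase, averaged 7.88 ± 0.942 CPM with vehicle and 9.98 ± 1.68 at 10 µM (SD, n = 4 each), with a log2 fold change of 0.34 ± 0.14 (SE; adjusted p = 0.503). *Kdm4b* and *Tet1* are given with the comparison of the doses, where both passed the test. Of the methyl donor and acetyl donor enzymes, *Ahcyl2*, a homologue of the hydrolase that clears S-adenosylhomocysteine, rose at 10 µM, the only 1 of 9 tested to pass, with 60.0 ± 2.2 CPM with vehicle and 75.2 ± 1.09 at 10 µM (SD, n = 4 each) and an adjusted p of 0.0394 for a log2 difference of 0.33. With 1 library left out it passed in 1 of 8 fits, that without replicate 4 with vehicle, and over all 19 alternatives the adjusted p reached 0.543. In this comparison 0.41% of all genes passed the test, which is the share to set beside the 1 of 9 donor enzymes. In the same comparison 0 of 20 proliferation markers and 3 of 10 macrophage markers passed it, all 3 of them higher, and of 6 monocyte markers 1 was higher and 1 lower.

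**Figure D3:**
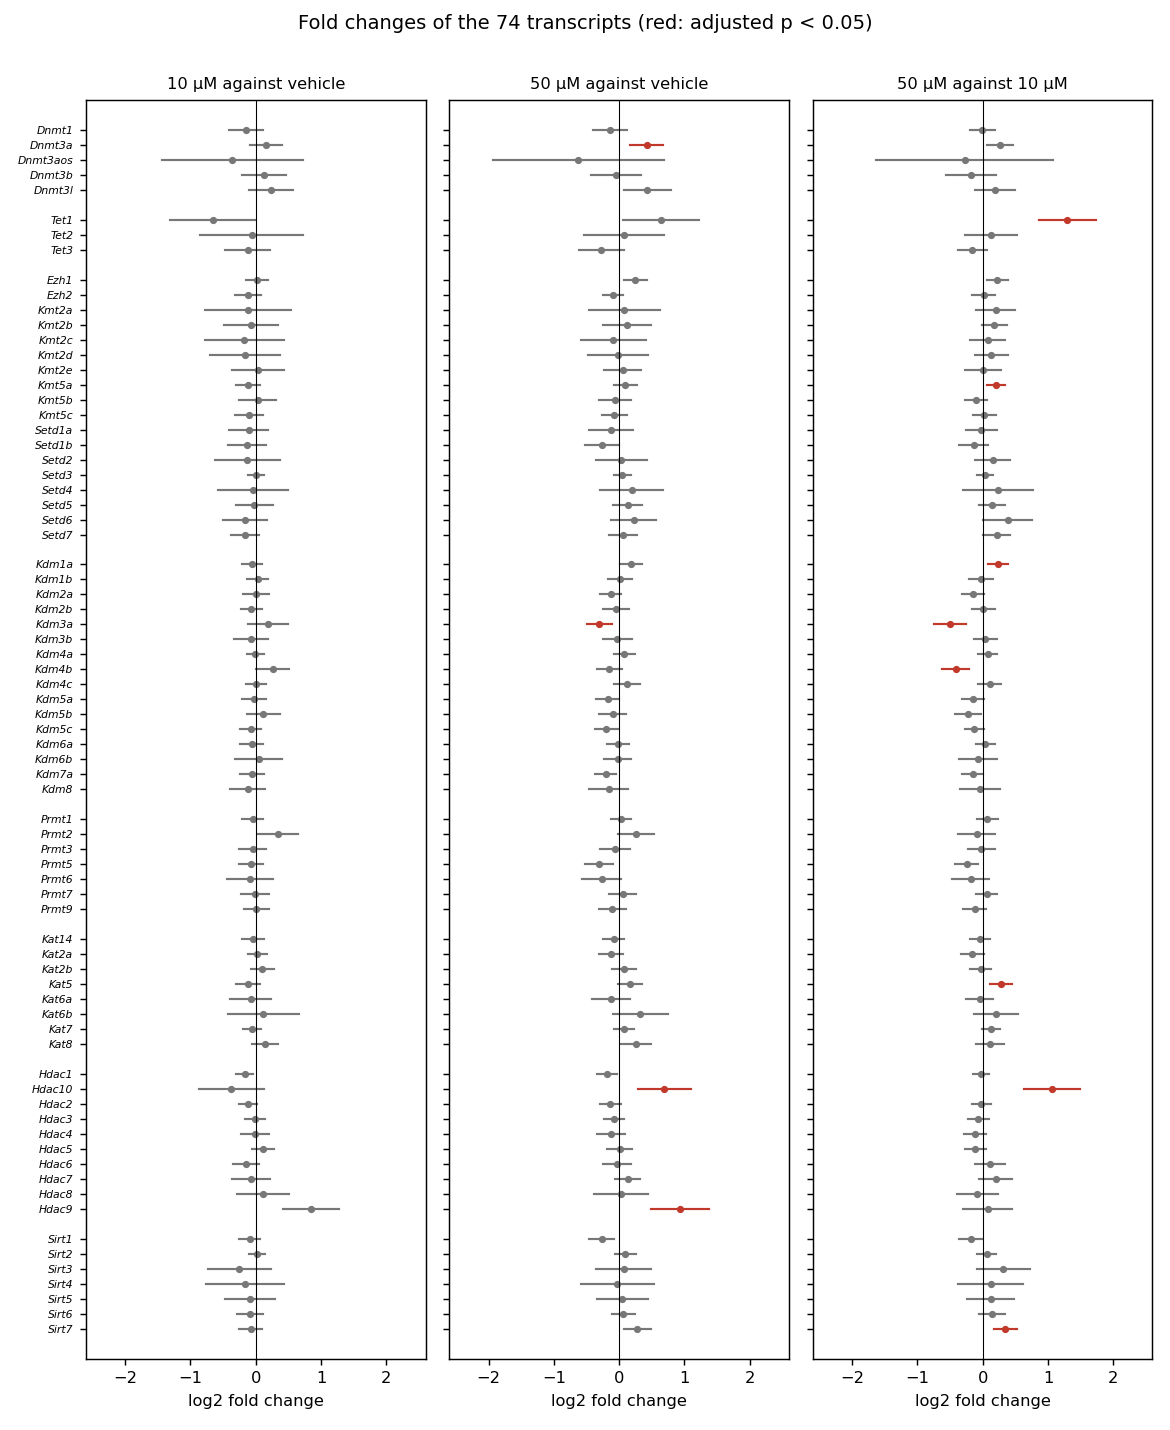
Log2 fold changes of the 74 transcripts with 95% intervals in the 3 comparisons, ordered by class, red where the adjusted p of edgeR's test was under 0.05. At 10 µM none is red, against vehicle 4 are red at 50 µM, and between the doses 8 are red, with *Tet1* and *Hdac10* furthest to the right.

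At 50 µM, 4 of the 74 enzymes passed the test against vehicle (5.41%), where 13.5% of all genes did, and 17 had an unadjusted p under 0.05 (23%, against 27.9%). *Hdac9*, *Hdac10* and *Dnmt3a* rose (3 of 74, against 7% of all genes) and *Kdm3a* fell (1 of 74, against 6.5%). The 95% interval stayed within 1.5-fold either way for 62 of 74 (83.8%, against 57.9% of all genes). The median size of a difference, sign aside, was 1.08-fold for the enzymes and 1.14-fold for all genes. The arginine and lysine methyltransferases, the acetyltransferases, the sirtuins and the TET dioxygenases had 0 members past the threshold of edgeR's test at 50 µM. An unadjusted p under 0.05 was found for 2 lysine methyltransferases, 2 sirtuins and 1 enzyme in each of the other 3 of these classes, and *Prmt5* and *Sirt1* passed in DESeq2's test.

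*Hdac9* had a log2 fold change of 0.93 at 50 µM ± 0.20 (SE; adjusted p = 0.00886 by edgeR), with means of 1.91 ± 0.304 and 3.61 ± 0.369 CPM (SD, n = 4 each). It passed in all 19 alternatives. *Hdac10*, a cytoplasmic polyamine deacetylase, had 3.59, 2.53, 3.36 and 2.46 CPM with vehicle, 1.99, 1.74, 2.86 and 2.61 CPM at 10 µM, and 4.10, 5.42, 5.00 and 4.62 CPM at 50 µM. The 50 µM libraries were above all others, and those at 10 µM overlapped vehicle. Its log2 fold change at 50 µM against vehicle was 0.69 ± 0.19 (SE; adjusted p = 0.0267), and the call was lost in 4 of 8 fits that left out 1 library, without replicate 2 with vehicle (adjusted p = 0.0601) or replicate 2, 3 or 4 at 50 µM (0.0915, 0.0644 and 0.0567).

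*Dnmt3a* had 101, 104, 101 and 73.2 CPM with vehicle, 90.1, 106, 115 and 108 CPM at 10 µM, and 139, 132, 103 and 129 CPM at 50 µM. Of the 50 µM libraries 3 lay above every vehicle library, and replicate 3, the one with the lowest length slope, lay within their range. Its exons overlap those of *Dnmt3aos* on the opposite strand. The log2 fold change at 50 µM against vehicle was 0.42 ± 0.12 (SE; adjusted p = 0.0291 by edgeR). The call was lost without replicate 1 or 3 with vehicle (adjusted p = 0.0555 and 0.0558) or replicate 1, 2 or 4 at 50 µM (0.0941, 0.0944 and 0.0801), and the fold change was between 0.31 and 0.50 in all 19 alternatives.

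The other DNA methyltransferases did not pass edgeR's test with *Dnmt3a*, and *Dnmt1* and *Dnmt3l* passed in 1 of 19 alternatives each. *Dnmt1* averaged 325 ± 54.7 CPM with vehicle, 294 ± 30.9 at 10 µM and 293 ± 33.7 at 50 µM (SD, n = 4 each), with an adjusted p of 0.477 at 50 µM. *Dnmt3b* averaged 5.99 ± 0.740, 6.55 ± 1.11 and 5.77 ± 1.37 CPM, and *Dnmt3l* 7.21 ± 1.37, 8.47 ± 1.11 and 9.68 ± 1.69 CPM, with adjusted p of 0.902 and 0.105 at 50 µM. The ratio of *Dnmt1* to *Dnmt3a*, each per kb, was between 7.41 and 8.07 with vehicle, between 5.96 and 6.77 at 10 µM and between 4.82 and 5.71 at 50 µM. The 3 groups did not overlap in this ratio. The ratio was chosen after its values were seen and was not tested.

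*Kdm3a*, a demethylase of lysine 9 of histone H3 and a classical target of hypoxia signalling, had 55.6, 64.6, 63.6 and 49.6 CPM with vehicle, 50.4, 60.2, 80.1 and 75.1 CPM at 10 µM, and 44.2, 47.4, 47.6 and 48.4 CPM at 50 µM. The 50 µM libraries were tightly grouped and below the 8 others. Against vehicle the log2 fold change at 50 µM was -0.31 ± 0.09 (SE; adjusted p = 0.0381 by edgeR). Of the 8 fits that left out 1 library, it passed only in the one without replicate 4 with vehicle, and the adjusted p was at most 0.131. The call was also lost with all 12 libraries in the fit (adjusted p = 0.0922) and with the replicate block (0.0528), and it held in 10 of 19 alternatives. Its paralog *Kdm3b* averaged 130 ± 20.7 CPM with vehicle, 124 ± 14.8 at 10 µM and 127 ± 8.39 at 50 µM (SD, n = 4 each) and did not pass edgeR's test.

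*Prmt5* was closest to the threshold without passing at 50 µM. It had 80.9, 63.7, 73.8 and 78.0 CPM with vehicle, 76.3, 68.9, 65.0 and 71.3 CPM at 10 µM, and 65.1, 64.6, 55.5 and 52.1 CPM at 50 µM. Replicate 2 with vehicle overlapped the 50 µM libraries. The log2 fold change was -0.31 ± 0.10 (SE; adjusted p = 0.0522 by edgeR), and it passed in 10 of 19 alternatives, with 0.0230 in DESeq2's test. Besides *Hdac9*, *Hdac10* and *Kdm3a*, the groups did not overlap for *Ezh1*, *Kat8* and *Hdac1*, in all 6 of 74 (8.11%, against 20% of all genes). *Ezh1*, the polycomb methyltransferase of resting cells, averaged 37.6 ± 3.25 CPM with vehicle and 44.4 ± 2.83 at 50 µM (adjusted p = 0.0693), and *Ezh2*, that of dividing cells, 60.7 ± 3.11 and 56.5 ± 2.44 CPM (SD, n = 4 each; adjusted p = 0.421).

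Markers of dividing cells and of several cell types moved in the comparisons with 50 µM, where 13.5% of all genes passed against vehicle and 15.4% between the doses. Of 20 such genes 14 were lower at 50 µM than with vehicle and 14 lower than at 10 µM, with summed levels of 4148 to 4617 CPM with vehicle, 3919 to 4190 at 10 µM and 3330 to 3681 at 50 µM. Of 14 neutrophil markers 8 were lower and 1 higher at 50 µM than with vehicle, and 6 of 8 B cell markers were higher, their sum being 52.7 to 70.5 CPM with vehicle, 68.1 to 87.5 at 10 µM and 88.2 to 130 at 50 µM. Of 6 monocyte markers 3 were lower at 50 µM than with vehicle and 5 lower than at 10 µM, among them *F13a1* (log2 difference between the doses -2.63) and the chemokine receptor *Ccr2* (-1.31). Their sum was 8343 to 9571 CPM with vehicle, 8758 to 9423 at 10 µM and 7424 to 8197 at 50 µM. Of 10 macrophage markers 2 were higher and 2 lower at 50 µM than with vehicle, and 1 was higher and 6 lower than at 10 µM, with sums of 2058 to 2254 CPM with vehicle, 2453 to 2691 at 10 µM and 2112 to 2256 at 50 µM. Of 6 progenitor markers *Myb* (-0.58), *Gfi1* (-0.53) and *Kit* (-0.44) were lower and *Cd34* (0.58) higher at 50 µM than with vehicle, and between the doses *Cd34* passed (0.67). Of 8 dendritic cell markers 3 were higher against vehicle and 1 between the doses, the latter *Batf3* (0.54). Of 7 mast cell and basophil markers 1 was higher (*Gata2*, 1.15) and 1 lower (*Kit*, also among the progenitor markers) against vehicle, and 2 were higher between the doses. Of 5 eosinophil markers 1 was higher in each comparison with 50 µM, while 2 of the 5 were above 0 against vehicle and their sum was 1008 to 1251 CPM with vehicle and 796 to 1072 CPM at 50 µM. The part of these shifts in the levels of *Hdac9*, *Hdac10*, *Dnmt3a*, *Kdm3a* and *Prmt5*, and in the differences between the doses given next, was not tested.

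The doses differed from each other in 8 enzymes (10.8%, where 15.4% of all genes passed), 6 of them higher (7.52% of all genes were) and 2 lower (7.85%) at 50 µM than at 10 µM. The higher ones were *Tet1*, *Hdac10*, *Sirt7*, *Kat5*, *Kdm1a* and *Kmt5a*, and the lower ones *Kdm3a* and *Kdm4b*. At an unadjusted p under 0.05 there were 15 enzymes (20.3%, against 29.5% of all genes). This comparison has the same 50 µM libraries as that against vehicle and the same 10 µM libraries as the first. The 95% interval stayed within 1.5-fold for 65 of 74 (87.8%, against 60.7%).

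*Tet1*, the TET enzyme of stem and germ cells, had 4.43, 4.79, 2.37 and 1.99 CPM with vehicle, 1.88, 1.99, 2.71 and 2.02 CPM at 10 µM, and 4.89, 4.91, 4.32 and 7.01 CPM at 50 µM. All 50 µM libraries were above all 10 µM libraries, and vehicle was spread over both ranges, with replicates 1 and 2 near the higher dose and replicates 3 and 4 near the lower one. The log2 fold change between the doses was 1.30 ± 0.21 (SE; adjusted p = 0.000547 by edgeR), and it passed in all 19 alternatives, between 1.13 and 1.44. At 10 µM against vehicle the log2 fold change was -0.66 ± 0.30 (SE; adjusted p = 0.552), and at 50 µM against vehicle the adjusted p was 0.138. *Tet2*, the most often mutated TET gene in myeloid disease, averaged 42.7 ± 21.4, 40.9 ± 14.7 and 44.6 ± 4.08 CPM in the 3 groups and *Tet3* 121 ± 29.4, 111 ± 13.1 and 99.2 ± 15.9 CPM (SD, n = 4 each), and neither passed edgeR's test in any comparison. *Tet3* passed at 50 µM against vehicle in 3 of 19 alternatives, which were without replicate 4 with vehicle, without the library of lowest length slope in each group, and with the replicate block and an offset for exon length.

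*Hdac10* differed between the doses with a log2 fold change of 1.06 ± 0.20 (SE; adjusted p = 0.00217 by edgeR) and passed in all 19 alternatives. *Sirt7* had 59.7, 68.6, 55.6 and 54.5 CPM with vehicle, 54.7, 56.7, 59.0 and 56.0 CPM at 10 µM, and 60.8, 73.2, 78.6 and 75.1 CPM at 50 µM. The 50 µM libraries were above those at 10 µM, with replicate 1 close to them and within the vehicle range. Its log2 fold change between the doses was 0.35 ± 0.08 (SE; adjusted p = 0.00757), and it passed in all 19 alternatives. Exons of *Sirt7* overlap those of the neighbouring *Mafg* on the same strand, so a part of its reads may be shared. The other sirtuins did not pass edgeR's test between the doses, among them *Sirt1*, the best studied nuclear one, with 32.1 ± 2.32 CPM with vehicle, 30.2 ± 0.832 at 10 µM and 26.5 ± 2.56 at 50 µM (SD, n = 4 each; adjusted p = 0.158 between the doses).

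*Kdm3a* was lower at 50 µM than at 10 µM by a log2 fold change of -0.50 ± 0.12 (SE; adjusted p = 0.00790 by edgeR). *Kdm4b*, a demethylase of the same lysine and likewise known as a hypoxia target, had 31.4, 36.8, 39.5 and 32.4 CPM with vehicle, 33.8, 41.6, 48.6 and 43.6 CPM at 10 µM, and 32.3, 32.4, 30.1 and 30.7 CPM at 50 µM. Both genes had their lowest 10 µM level in replicate 1 and their highest in replicate 3, and no 10 µM library overlapped those at 50 µM. The log2 fold change of *Kdm4b* between the doses was -0.41 ± 0.10 (SE; adjusted p = 0.00891), and at 10 µM against vehicle it was 0.26 ± 0.11 (SE; adjusted p = 0.541). Both genes passed between the doses in all 19 alternatives. The lysine 9 demethylases *Kdm4a* and *Kdm4c* had adjusted p of 0.471 and 0.437 between the doses.

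The remaining 3 enzymes differed by smaller amounts. *Kat5*, the catalytic subunit of the NuA4 acetyltransferase, had 29.0, 27.3, 33.2 and 27.9 CPM with vehicle, 25.3, 26.1, 27.5 and 29.0 CPM at 10 µM, and 30.6, 32.6, 34.5 and 33.4 CPM at 50 µM (log2 difference between the doses 0.28 ± 0.08 SE, adjusted p = 0.0234 by edgeR). *Kdm1a*, the demethylase of the CoREST complex, had 70.8, 65.6, 61.0 and 63.7 CPM with vehicle, 58.8, 63.8, 63.6 and 65.4 CPM at 10 µM, and 77.3, 73.0, 66.2 and 77.8 CPM at 50 µM (log2 difference 0.23 ± 0.07 SE, adjusted p = 0.0388). *Kmt5a* had 217, 224, 203 and 172 CPM with vehicle, 179, 185, 186 and 205 CPM at 10 µM, and 227, 215, 203 and 222 CPM at 50 µM (log2 difference 0.20 ± 0.06 SE, adjusted p = 0.0426). The doses did not overlap for *Kat5* and *Kdm1a* and overlapped in 1 library of each dose for *Kmt5a*, and vehicle overlapped both doses for all 3. With 1 library left out, *Kat5* passed in 4, *Kdm1a* in 2 and *Kmt5a* in 2 of 8 fits, with adjusted p of at most 0.0801, 0.112 and 0.118 over the 19 alternatives. In the fits that left out 1 library, *Kat5* was lost without replicate 1 or 2 at 10 µM or replicate 2 or 4 at 50 µM. In those fits *Kdm1a* and *Kmt5a* passed only without replicate 4 at 10 µM or replicate 3 at 50 µM. Both were also lost with the replicate block (adjusted p = 0.0593 each by edgeR). *Kmt5a* was lost with all 12 libraries in the fit (0.111) and with no filter (0.0535). *Kat5* was lost without the library of lowest length slope in each group (0.0801). Exons of *Kat5* overlap those of *Rnaseh2c* on the opposite strand. In all, 9 of 74 enzymes separated the doses without overlap (12.2%, against 20.3% of all genes).

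**Figure D4:**
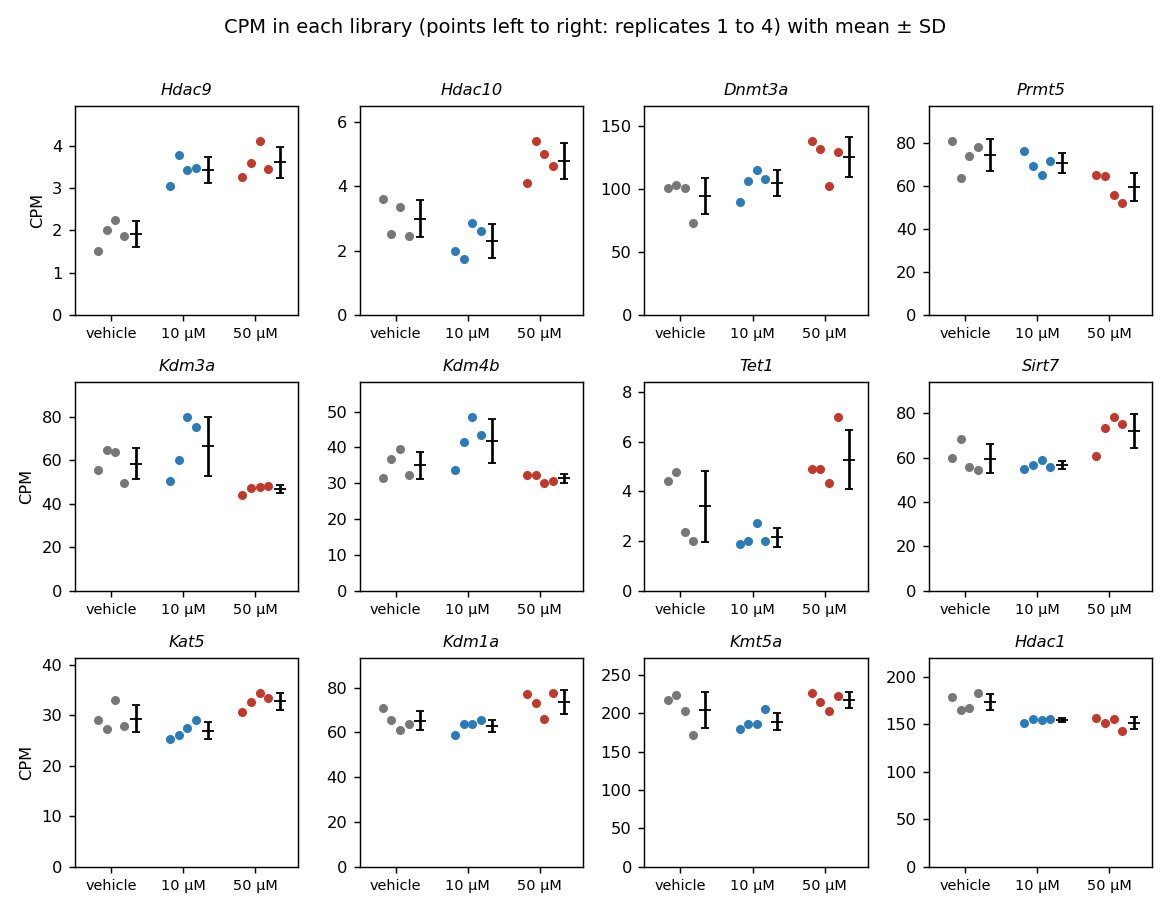
CPM of 12 enzymes in each library, with points from left to right for replicates 1 to 4, mean ± SD (n = 4) beside them, and axes starting at 0. *Hdac9* is higher in all 8 libraries with IPA than with vehicle, *Tet1* and *Hdac10* are higher at 50 µM than at 10 µM, and *Kdm3a* and *Kdm4b* are lower at 50 µM than at 10 µM.

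*Kdm3a* and *Tet1* are the members with the clearest fall and rise between the doses that have a start site in the RefSeq promoter table of GRCm38.p6, which held 62 of the 74 symbols. Their windows, from 250 bases before to 50 after a start site on the minus strand, are shown to compare their content of CG, the dinucleotide on which DNMT and TET enzymes act, and each CG is in capitals. The window of *Kdm3a* (chr6:71632868-71633167) held 24 CG and that of *Tet1* (chr10:62887275-62887574) 17 CG, against a median of 7 over 32851 windows of this length. As many were found in 20% and 31.4% of these windows. CG reads the same on both strands. The *Tet1* window is that of an internal start, 21.7 kb downstream of the gene's outermost start in GENCODE M21.
Kdm3a: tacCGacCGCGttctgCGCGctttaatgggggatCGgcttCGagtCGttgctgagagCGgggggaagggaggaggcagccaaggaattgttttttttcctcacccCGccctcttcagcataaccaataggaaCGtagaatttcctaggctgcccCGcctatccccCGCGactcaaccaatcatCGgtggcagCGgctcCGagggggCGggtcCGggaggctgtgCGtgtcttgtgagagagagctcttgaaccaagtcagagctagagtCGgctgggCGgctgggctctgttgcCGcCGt
Tet1: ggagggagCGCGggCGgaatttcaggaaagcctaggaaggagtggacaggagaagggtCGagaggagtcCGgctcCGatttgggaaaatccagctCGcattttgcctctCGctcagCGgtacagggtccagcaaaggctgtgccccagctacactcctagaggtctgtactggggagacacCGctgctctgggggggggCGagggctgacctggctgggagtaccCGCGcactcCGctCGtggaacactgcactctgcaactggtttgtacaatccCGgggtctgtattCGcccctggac

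For *Kmt2a*, *Tet2*, *Kmt2c*, *Kmt2d* and *Setd2*, which have long transcripts, the libraries with vehicle differed from each other more than the group means did. *Kmt2a*, a methyltransferase of lysine 4 of histone H3 that keeps Hox genes active in blood stem cells, had 78.9, 110, 62.3 and 32.2 CPM with vehicle, 45.9, 58.8, 68.4 and 87.6 CPM at 10 µM, and 79.5, 80.4, 65.8 and 72.1 CPM at 50 µM. *Tet2* had 46.3, 68.3, 39.7 and 16.3 CPM with vehicle, 23.0, 36.3, 47.2 and 57.2 CPM at 10 µM, and 39.7, 46.7, 48.9 and 42.9 CPM at 50 µM. For both genes the vehicle group held the highest and the lowest of the 12 libraries, replicates 2 and 4, which are also those with the highest and the lowest length slope of that group. *Kmt2c* and *Kmt2d*, which mark enhancers, and *Setd2*, which methylates lysine 36 of histone H3 along transcribed genes, had the same extremes, with vehicle ranges of 41.0 to 129, 80.4 to 212 and 70.5 to 165 CPM.

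In the vehicle group 10 of 74 transcripts had a coefficient of variation over 30%, namely *Tet2*, *Kmt2a*, *Tet1*, *Kmt2c*, *Kmt2d*, *Dnmt3aos*, *Sirt4*, *Setd2*, *Kat6b* and *Kmt2b*. At 10 µM there were 2 (*Dnmt3aos* and *Tet2*) and at 50 µM 1 (*Dnmt3aos*). The 22 enzymes with over 10000 bases of exon had median coefficients of variation of 16.5% with vehicle, 13.2% at 10 µM and 8.39% at 50 µM, and the other 52 had 9.72%, 7.56% and 7.72%. Over all 1212 genes of that length tested the medians were 13.9%, 10.5% and 9.44%, and over the 13670 shorter genes 12.9%, 11.1% and 11.3%, so that over all genes the longer ones varied more with vehicle and less at both doses. The difference in spread between groups was not tested. In the plot of fold changes *Kmt2a*, *Kmt2c*, *Kmt2d*, *Setd2* and *Tet2* have wider intervals against vehicle than between the doses. When a trend of counts on exon length was removed from each library, 9 enzymes passed at 50 µM against vehicle (12.2%, against 16.4% of all genes in that fit) and 13 between the doses (17.6%, against 19.1%). At 50 µM *Ezh1*, *Hdac1*, *Kdm7a*, *Prmt5* and *Sirt7* passed in addition to the 4.

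**Figure D5:**
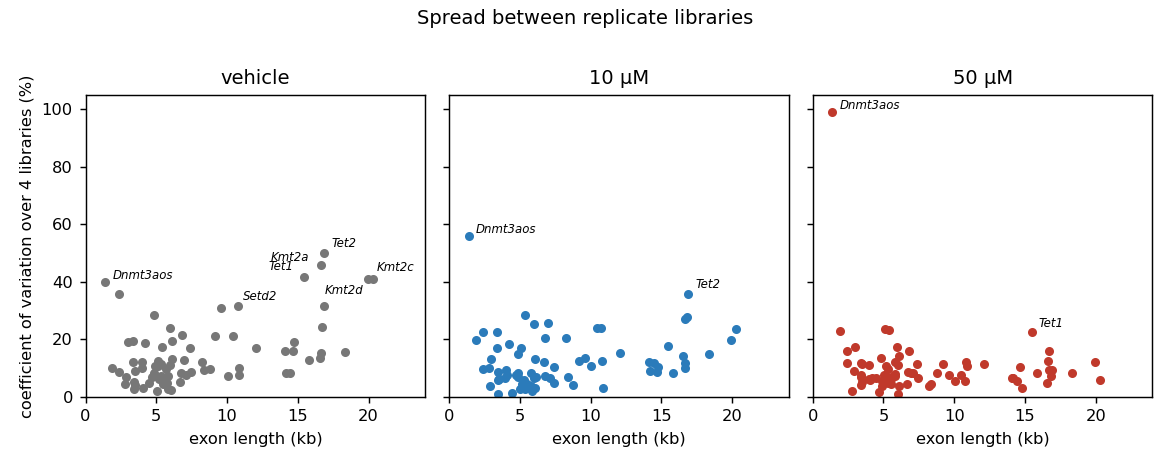
Coefficient of variation over the 4 libraries of a group, in percent, against exon length in kb for the 74 transcripts, in 1 panel per group. With vehicle *Tet2*, *Kmt2a*, *Tet1*, *Kmt2c*, *Kmt2d* and *Setd2* lie above 30%, and at 50 µM 1 transcript does, *Dnmt3aos*, which is at most at 0.538 CPM on average.

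Partners of these enzymes, from lists of complex subunits, were followed in the same tests. At 10 µM none of the 129 tested partners and other writers passed edgeR's test, where 0.41% of all genes did. At an unadjusted p under 0.05 there were 11 of the 129, against 8.78% of all genes. DESeq2's test and limma-voom gave 0 calls. At 50 µM against vehicle 13 of the 129 passed (10.1%, against 13.5% of all genes) and between the doses 20 (15.5%, against 15.4%). The DNA methylation list held *Uhrf1*, which brings DNMT1 to replicated DNA, and the remodeller *Hells*. *Uhrf1* fell at 50 µM from 186 ± 4.94 to 141 ± 9.48 CPM (log2 difference -0.39, adjusted p = 0.00241) and *Hells* from 73.7 ± 5.44 to 55.5 ± 2.57 CPM (-0.40, adjusted p = 0.00393; SD, n = 4 each), while *Gadd45g*, of a family linked to DNA demethylation, rose from 4.57 ± 0.999 to 7.74 ± 1.07 CPM (0.77, adjusted p = 0.0124). These were 3 of 11 tested, where 14 of 20 proliferation markers also fell. Between the doses 4 of the 11 passed, *Gadd45g* (log2 difference 0.53) and *Gadd45a* (0.45) higher and *Uhrf1* (-0.23) and *Hells* (-0.22) lower at 50 µM.

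Of all genes 13.5% passed at 50 µM against vehicle and 15.4% between the doses. In these 2 comparisons the shares were 17.4% and 21.7% for deacetylase complex subunits and 7.41% and 25.9% for polycomb subunits. They were 10.3% in both for acetyltransferase complex subunits and 3.57% in both for other writers and erasers. Of 23 deacetylase complex subunits, 3 rose at 50 µM against vehicle, the NuRD members *Chd3* (log2 fold change 0.67), *Mta3* (0.38) and *Mta1* (0.32), and *Sap30* of the SIN3 complex fell (-0.39). Between the doses 3 of the 23 were higher and 2 lower at 50 µM, including *Chd3* (0.75), *Mta3* (0.36), *Sap30* (-0.52) and *Rcor2*, a CoREST subunit, which averaged 4.15 ± 1.95 CPM at 10 µM and 1.15 ± 0.397 at 50 µM (SD, n = 4 each) with a log2 difference of -1.84 ± 0.35 (SE; adjusted p = 0.00229) and passed in all 19 alternatives. Of 27 polycomb subunits, *Pcgf5* (-0.55) and *Rybp* (-0.38), both of PRC1, fell at 50 µM against vehicle, and between the doses 6 were higher and 1 lower, with *Pcgf2* (0.56), *Pcgf1* (0.56), *Phf1* (0.52) and *Cbx2* (0.50) the largest differences. Of 29 acetyltransferase complex subunits, *Tada2b* (-0.32), *Msl3* (-0.29) and *Msl2* (-0.24) fell at 50 µM against vehicle, and between the doses *Tada2b* (-0.37) and *Msl3* (-0.23) were lower and *Brpf3* (0.56) higher at 50 µM. The 11 COMPASS subunits, which work with the KMT2 and SETD1 enzymes, had 0 members past the threshold of edgeR's test in each comparison. An unadjusted p under 0.05 was found for 1 at 10 µM (against 8.78% of all genes), 3 at 50 µM against vehicle (27.9%) and 0 between the doses (29.5%). DESeq2's test and limma-voom each called 1 at 50 µM against vehicle. Of 28 other histone writers and erasers, *Naa60* fell at 50 µM against vehicle (-0.38) and *Jmjd6* was lower at 50 µM than at 10 µM (-0.34). With 1 library left out, the calls of *Tada2b* and *Msl2* remained in 2 of 8 fits each, that of *Msl3* in 4, *Sap30* in 5 and *Mta3* in 6, while the others of these 6 lists named against vehicle passed in all 8. Between the doses the calls of *Hells* remained in 1 of 8 fits, *Chd3* in 2, *Msl3*, *Gadd45a* and *Gadd45g* in 3 each, *Cbx2* in 4, *Uhrf1* and *Pcgf1* in 5 each and *Pcgf2* and *Tada2b* in 6 each, and the others named passed in all 8.

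Among 9 enzymes of donor metabolism, *Acss2*, which makes acetyl-CoA from acetate, averaged 10.2 ± 0.639 CPM with vehicle, 9.83 ± 0.821 at 10 µM and 20.3 ± 3.23 at 50 µM (SD, n = 4 each). Its log2 fold change at 50 µM was 1.00 against vehicle ± 0.12 (SE; adjusted p = 0.000165), larger than that of any of the 74 enzymes in that comparison. *Ahcyl1* rose as well (0.46), and *Mat2a* (-0.43) and *Mat2b* (-0.34), which encode the subunits of the enzyme that makes S-adenosylmethionine, fell. These made 4 of 9 (against 13.5% of all genes), and between the doses 3 were higher and 3 lower (against 15.4%), with *Acss2* (1.05), *Nmnat1* of NAD synthesis (0.64), *Ahcyl1* (0.38) and *Mat2b* (-0.34) the largest differences.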

How the data were processed

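Raw counts per gene were deposited for 12 RNA-seq libraries. Per the methods and labels, the authors made stranded mRNA libraries, aligned reads to mm10 with HISAT2 2.2.1 and counted them on Ensembl genes with featureCounts 2.0.1. The strand setting was not given in the sources used here, so overlapping genes may share reads. Groups were read from the labels. Replicate 3 at 10 µM bears the same title as replicate 2 and was identified by the name of its library.

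Each pair of groups was tested on its 8 libraries with edgeR 4.0.16 (TMM, glmQLFit, glmQLFTest, two-sided, no replicate block) in R 4.3.3, with p adjusted over 14894 genes at a threshold of 0.05. The SE was the log2 fold change divided by the square root of F. CPM were TMM-normalized over 12 libraries. Exon lengths are those of GENCODE M21 on GRCm38. The members, gene lists and tests were chosen with earlier results of these data known. Full values were given for enzymes past the threshold in any comparison, up to 3 rises and 3 falls per class, and for the 5 smallest p where fewer than 5 passed. Each class is also given by its highest level per kb, and each partner list by at most 4 genes past the threshold with the largest differences. Alternatives were DESeq2 1.42.0, limma-voom (limma 3.58.1), DESeq2 size factors, other filters (none, or at least 10 counts in every library), all 12 libraries in the fit, a replicate block, offsets for exon length and GC content, and leaving out each library. Leaving out the library with the lowest length slope in each group was added after seeing the data.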

Additional observations from a re-analysis of the deposited data

Results flagged for a closer look

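The highest or lowest library of a group was compared with its neighbours by Dixon's test in 63 groups of 4, for the enzymes given in full and for the class sums. It set 6 apart, where chance gives about 1 in 20. Replicate 4 with vehicle was low for *Dnmt3a*, at 73.2 CPM against 101 to 104 in the others, and for the summed acetyltransferases, at 366 CPM against 430 to 441. Replicate 2 with vehicle was high for the summed sirtuins, at 216 CPM against 193 to 197. At 10 µM replicate 3 was high for *Tet1*, at 2.71 CPM against 1.88 to 2.02. At 50 µM replicate 3 was low for the summed lysine methyltransferases, at 1466 CPM against 1630 to 1657, and replicate 4 for the summed arginine methyltransferases, at 249 CPM against 269 to 272. Replicate 4 with vehicle and replicate 3 at 50 µM are also the libraries with the lowest length slope in their groups, and the part of that slope in these values was not tested.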

How the results depend on the processing

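The 5 enzymes given for 10 µM, the 5 given for 50 µM against vehicle and the 8 given between the doses kept their direction under the 19 alternatives of that comparison. The summed level of each class moved by less than 1 SD with CPM from library totals. With 1 of 4 libraries left out a mean cannot move by that much, so those fits say nothing about the sums. The number of enzymes that passed depended more on the setting. At 10 µM it was 0 except in DESeq2's test and with all 12 libraries in the fit, which each gave 1, and it was 0 whichever library was left out. At 50 µM against vehicle it was 4, and 8 in DESeq2's test, 8 with all 12 libraries, 9 with an offset for exon length, 9 with an offset for exon length and GC content, 8 with the replicate block and an offset for exon length, and 8 without the lowest length slope of each group. Leaving out 1 library gave 1 (without replicate 2 or 4 at 50 µM) to 11 (without replicate 4 with vehicle). Over all 19 alternatives the count of all genes passing moved as well, from 1248 to 2689. The number of enzymes was 2 without replicate 1 or 3 with vehicle.

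Between the doses it was 8, and 13 with either offset, 14 with the replicate block and the offset for exon length, and 5 (without replicate 2 at 10 µM, or replicate 2 or 4 at 50 µM) to 11 (without replicate 3 at 50 µM) with 1 library left out. The counts of all genes ranged from 3 to 250 at 10 µM, from 1248 to 2689 at 50 µM against vehicle and from 1604 to 3018 between the doses. Whether the number of enzymes moved more with the setting than that of all genes was not tested. With the replicate block alone 0, 3 and 7 enzymes passed in the 3 comparisons. Same-numbered libraries deviated together with a correlation between -0.24 and 0.14. These values show no pairing by number, but they cannot exclude one, because libraries of a group also differed in length slope. *Hdac9*, *Hdac10*, *Tet1* and *Dnmt3aos* were measured at low levels, where counting error weighs more.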
